A study of Mus musculus with 3 samples.

Results

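The 5 array probes described here were named hsa-miR-19a, hsa-miR-19b, hsa-miR-92, hsa-miR-25 and hsa-miR-363, written below without the species prefix. They stand for the microRNAs (miRNAs) of the miR-17-92 cluster and its paralog clusters that carry the miR-19 or the miR-92/25 seed. The probes were chosen by probe name alone, without the mismatch versions of the same probes, and were 5 of 1491 probe identifiers on the array and 5 of the 276 probes named for a miRNA that has a mouse gene. The series profiled miRNAs in a mouse study of T-cell acute lymphoblastic leukaemia (T-ALL) on 2-colour Exiqon miRCURY arrays, whose capture probes contain locked nucleic acid. The 3 samples, all on a Balb/c background, were normal CD4+CD8+ (double-positive) thymocytes as control, CD4+CD8+ cells that express ICN1 and are not malignant, and CD4+CD8+ tumor cells that express ICN1. ICN1 is the cleaved intracellular domain of NOTCH1, which signals without ligand. How ICN1 was delivered, the age of the mice and the number of animals behind a sample were not given in the labels. The labels also give no time point, so any difference in age or time between the samples cannot be told apart from the groups. Total RNA of a sample carried the dye Hy3 and was hybridised against a Hy5-labelled pool of equal amounts of the 3 samples.

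Each group was 1 sample on 1 array, so the array and the group cannot be told apart, the number of arrays limits the precision, and no test between groups was possible. Every SD and standard error below is over the replicate spots of a probe and says nothing of the spread between animals. In bulk RNA, fewer cells of a type and less RNA per cell cannot be told apart either.

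A miRNA guides the Argonaute silencing complex to messenger RNAs that pair with its seed, so miRNAs with one seed share most of their targets. The miR-17-92 cluster is a single transcript that yields miRNAs of several seed families, is induced by MYC and is amplified in human lymphomas. In mice, miR-19 is the component known to accelerate T-cell leukaemia driven by NOTCH1 and lymphoma driven by MYC, in part through repression of the pro-apoptotic Bcl2l11 (Bim). The miR-92/25 seed family also represses Bcl2l11, and miR-25 comes from an intron of Mcm7, a gene of the DNA replication licensing complex.

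The mature sequences show which probes can be expected to share targets and which are close enough to share hybridisation. They are given 5′ to 3′ from RefSeq (GRCm38.p6), with the seed, bases 2 to 8, in capitals, and all 5 names were matched to a mouse miRNA.
miR-19a: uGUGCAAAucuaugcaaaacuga
miR-19b: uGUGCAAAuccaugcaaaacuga
miR-92: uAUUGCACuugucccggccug
miR-25: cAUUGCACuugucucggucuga
miR-363: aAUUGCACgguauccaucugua
The probes carry human names, and the sequences of the probes themselves were not used here, so the pairing with mouse miRNAs rests on the names.

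The seed of miR-19a and miR-19b occurred in 2 mature miRNA names of the RefSeq list and that of miR-92, miR-25 and miR-363 in 6, the others being miR-32, miR-92b and miR-367. Counted from 1 at the 5′ end, miR-19a and miR-19b differed by the single substitution U11C over 23 bases. The miR-92 and miR-25 sequences were identical at 18 of the 21 positions compared, with U1C, C14U and C18U, whereas miR-92 and miR-363 were identical at 10 of 21. The values of the miR-19a and miR-19b probes are therefore uncertain as separate measurements, and to a lesser degree so are those of miR-92 and miR-25.

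The 5 miRNAs come from 3 loci. The miR-17-92 cluster, 6 miRNA genes within 836 bases of the plus strand of chromosome 14, holds miR-19a at chr14:115044048-115044070, a copy of miR-19b at chr14:115044358-115044380 and a copy of miR-92 at chr14:115044476-115044496. The miR-106a-363 cluster, 6 genes within 875 bases of the minus strand of chromosome X, holds the other copy of miR-19b at chrX:52741991-52742013, the other copy of miR-92 at chrX:52741854-52741874, and miR-363 at chrX:52741697-52741718. The miR-106b-25 cluster, 3 genes within 498 bases of the minus strand of chromosome 5 inside Mcm7, holds miR-25 at chr5:138165332-138165353. The mature sequences from both copies of miR-19b are identical, as are those of miR-92 (RefSeq miR-92a), so the array cannot tell which cluster their signal came from.

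A probe counted as detected in a dye where at least 50% of its usable spots had a signal mean above the local background median plus 2 background SDs. By this rule 166, 155 and 168 of the 276 probes were detected in Hy3 on the control, non-malignant ICN1 and ICN1 tumor arrays, with median backgrounds of 77, 82 and 70 intensity units, and fewer, 98 to 104, in Hy5. None of 320 empty spots passed the Hy3 rule on any array, but 83 to 93 of 175 human-named probes with no mouse gene of that name did, with a median net signal of 17.5 to 21.8 units. The thymocyte miRNAs miR-181a and miR-181b were detected on all 3 arrays, with a summed net Hy3 signal of 409, 231 and 159 units. Their normalized log2 differences were -0.61 and -0.30, non-malignant minus control, and -1.24 and -0.64, tumor minus control. The pan-haematopoietic miR-142-3p and miR-142-5p, detected on all 3 arrays, summed to 21372, 16843 and 7457 units, with normalized log2 differences, tumor minus control, of -1.29 and -1.78. The 3 erythroid miRNAs were all detected and summed to 24002, 11753 and 642 units, and the myeloid miR-223 gave 164, 366 and 65.1 units. Net signals were not scaled between arrays. The detected probes as a whole were dimmer on the tumor than on the control array, with a median net Hy3 log2 difference of -0.67. After normalization, non-malignant minus control, erythroid miR-451 and miR-486 differed by -1.19 and -0.31, but miR-144 by 0.72. Tumor minus control, miR-451, miR-486 and miR-144 differed by -6.13, -0.76 and -1.02. The normalized differences of miR-223 were 1.19, non-malignant minus control, and -0.24, tumor minus control. Of 4 stromal markers 2 were detected on every array, at 2220, 1790 and 1502 units in sum over the 4, and of 5 epithelial markers 3 were, at 144.2 to 148.8 units. After normalization the 2 detected stromal markers, miR-145 and miR-214, differed by -0.0039 and -0.020, tumor minus control. Of 4 muscle and liver markers 2 or 3 were detected, at 123 to 158 units in sum, and miR-150 of mature lymphocytes was not detected in the tumor sample (44.4, 24.8 and 18.7 units). The part of these other cells in the differences below was not tested.

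All 5 probes were dim, and 4 of them were detected in Hy3 on every array, the exception being miR-92. Each had 4 usable spots per array, none of them saturated. In Hy3, the miR-19a probe gave a signal mean of 210.1 ± 6.71 units in control, 158.2 ± 8.99 in non-malignant and 120.7 ± 1.99 in tumor cells (SD over 4 spots), or 2.69, 1.90 and 1.69 times the local background. The miR-19b probe gave 211.0 ± 3.91, 160.2 ± 9.09 and 141.2 ± 2.98 units in the same order, or 2.82, 2.02 and 2.05 times background. For both miR-19 probes the scanned Hy3 signal was highest on the control array and lowest on the tumor array, and the spots of the 3 arrays did not overlap in signal. Against background the order of miR-19b in non-malignant and tumor cells turned, as the tumor array had the lower background.

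The miR-25 probe gave 159.7 ± 3.26, 152.1 ± 2.50 and 141.5 ± 3.13 units in Hy3 in the same order, or 1.97, 1.73 and 1.94 times background. The miR-363 probe gave 163.7 ± 1.93, 145.5 ± 2.83 and 136.6 ± 2.32 units, or 2.09, 1.75 and 1.92 times background. Both probes were highest on the control array by signal and lowest on the non-malignant array by signal over background. The miR-92 probe was at the edge of detection, at 105 ± 0.62, 103 ± 2.38 and 96.0 ± 1.47 units, or 1.32, 1.21 and 1.33 times background. It passed the rule on 4 of 4 spots of the control array, 0 of 4 of the non-malignant array and 3 of 4 of the tumor array. Its net signal of 25.5, 17.8 and 23.8 units was close to the median of the human-named probes without a mouse gene.

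**Figure D1:**
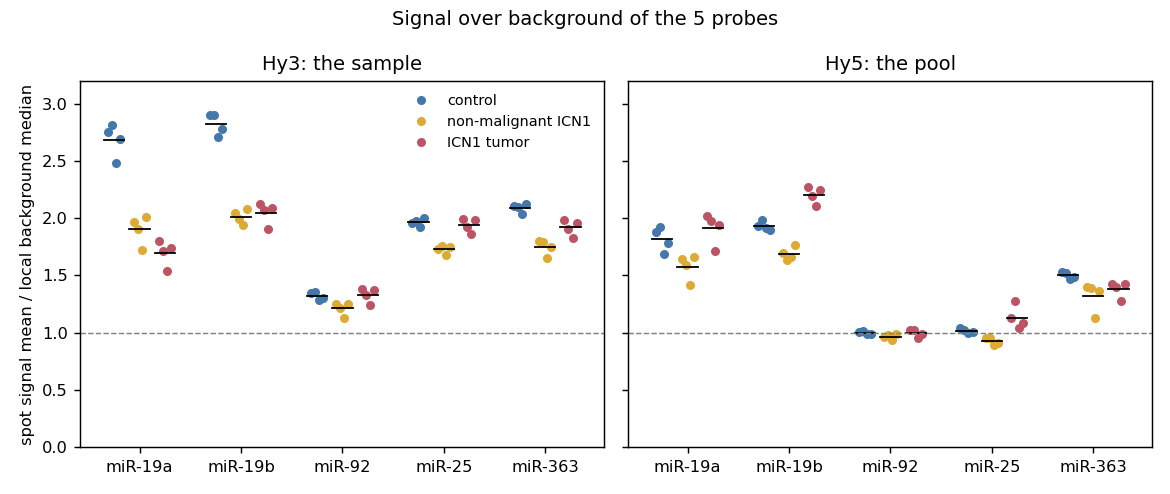
Signal mean divided by local background median (y axis, no unit) for each of 4 spots per array (points) and their mean (line), for the 5 probes (x axis), in Hy3 (left) and Hy5 (right); the dashed line at 1 marks signal equal to background. In Hy5 the miR-19a and miR-19b probes lie between 1.58 and 2.21 on average, while miR-92 and miR-25 lie between 0.92 and 1.13.

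The pool was not measured for all 5. In Hy5, miR-19a and miR-19b passed the detection rule on 4 of 4 spots of every array and miR-363 on 4, 3 and 4 spots. The miR-25 and miR-92 probes passed on 0 of 4 spots of every array, with a Hy5 signal of 1.01, 0.92 and 1.13 times background for miR-25 and 1.0, 0.97 and 0.99 times for miR-92. For miR-25 and miR-92 the ratio of sample to pool is therefore a ratio to background, and the measured ratios are those of miR-19a, miR-19b and miR-363.

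Differences between samples were taken as the log2 ratio of Hy3 to Hy5, after background correction with an offset of 50 units and loess normalization within each array, on one array minus that on another. The offset shrinks differences of dim probes, and the 5 probes are dim, so ratios of background-subtracted signals are given beside it. Those ratios were also not loess-normalized, so their gap to the reported values is not that of the offset alone. After normalization, miR-19a stood at a log2 ratio of 0.20 ± 0.016 in control, -0.11 ± 0.023 in non-malignant ICN1 and -0.48 ± 0.027 in ICN1 tumor cells (SD over 4 spots). The miR-19b probe stood at 0.17 ± 0.030, -0.11 ± 0.026 and -0.34 ± 0.027. For both, the control spots were all highest and the tumor spots all lowest, with no overlap between arrays.

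The miR-363 probe stood at 0.073 ± 0.025, -0.017 ± 0.072 and 0.15 ± 0.029, with the tumor spots above all others and the control and non-malignant spots overlapping. The miR-25 probe stood at 0.53 ± 0.042, 0.45 ± 0.048 and 0.39 ± 0.097 and the miR-92 probe at -0.26 ± 0.017, -0.35 ± 0.038 and -0.27 ± 0.054, both against an undetected pool. Spots of miR-25 overlapped between the non-malignant array and each of the others, with the control spots all above the tumor spots, and those of miR-92 overlapped between the tumor array and each of the others.

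**Figure D2:**
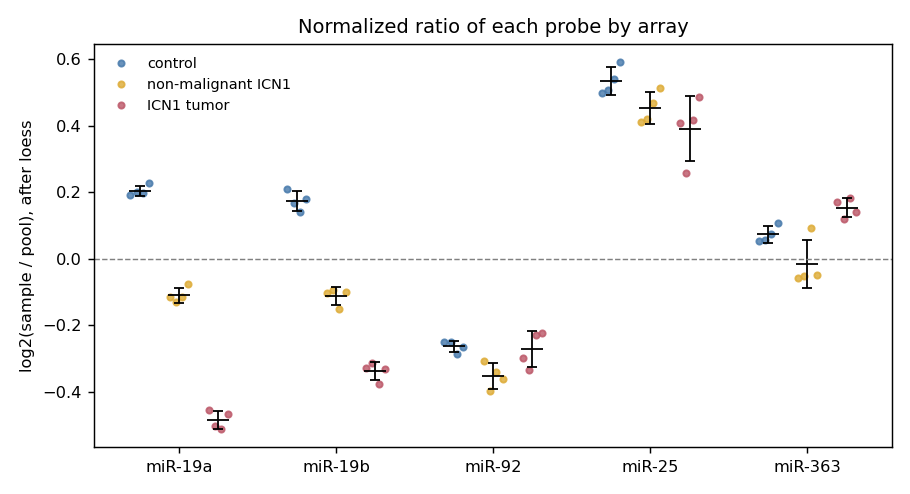
Loess-normalized log2 ratio of sample to pool (y axis) for 4 spots per array (points), with the mean and SD over spots (bars), for the 5 probes (x axis) in the 3 samples. The miR-19a and miR-19b spots descend from control through non-malignant ICN1 to ICN1 tumor cells without overlap, an order that for miR-19b in the last pair reverses with the Hy3 channel alone and when loess is fitted on mouse miRNA probes. The other 3 probes stay within 0.17 between any pair of samples.

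The first comparison set cells that express ICN1 without being malignant against normal thymocytes. The miR-19 probes were 1.24-fold (miR-19a) and 1.22-fold (miR-19b) lower in the non-malignant ICN1 sample, with log2 differences of -0.31 ± 0.014 and -0.29 ± 0.020 (standard error over spots), and they lay below 0 in each of 12 other settings of the processing. Those settings gave -0.49 to -0.23 for miR-19a and -0.44 to -0.21 for miR-19b. From background-subtracted signals the log2 differences of the ratio were -0.42 and -0.40. The pool signal itself, centred on each array, differed by -0.085 for miR-19a and -0.077 for miR-19b, against an SD of 0.16 over 179 detected probes. These 179 were detected in Hy3 on any array, and not all of them in Hy5. Before scaling, net Hy5 signals differed on the log2 scale by -0.39 for miR-19a and -0.35 for miR-19b. The median over 97 probes detected in Hy5 on both arrays was -0.12.

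The miR-92/25 seed members were closer to 0 in that comparison. The miR-363 difference was -0.090 ± 0.038, with 3 of 4 spot positions lower, and it was just above 0, at 0.0072, with median centring, while background-subtracted signals gave 0.095. The miR-25 difference was -0.080 ± 0.032 and lay at or above 0 with median centring (0.052), spike-in centring and loess on mouse miRNA probes. The miR-92 difference was -0.090 ± 0.021 and below 0 in all 12, but the probe was not detected in the non-malignant sample, which leaves a nominal bound of 1.01-fold brighter in control. For that bound the Hy3 channel was taken after loess and A-quantile normalization, the undetected side was set to the dimmest detected probe of its array unless the probe itself was brighter, and no dye swap guards it against dye bias. The bound is smaller than the spread over spots, and the dimmest detected probe is no strict limit, so it is not a measured difference. No probe of the 5 reached 2-fold, beside 5.99% of 167 detected mouse-named probes. All 5 lay below 0, beside 58.1% of those 167, with a median of -0.090 against -0.026. Of all 167, 19.2% had a lower difference than miR-19a and 22.2% a lower one than miR-19b. Of 70 detected probes within the intensity range of the 5, 7 had a lower difference than miR-19a and 9 a lower one than miR-19b. That range ends at miR-19b, the brightest of the 5 on average over the arrays, and the offset shrinks dimmer probes more.

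The second comparison, which shares the control array with the first, set the ICN1 tumor sample against normal thymocytes. Here miR-19a was 1.61-fold lower in tumor cells (-0.69 ± 0.016) and miR-19b 1.43-fold lower (-0.51 ± 0.020), at 4 of 4 spot positions and with the same sign in all 12 other settings. The settings moved the size widely, from -1.07 with an offset of 0 to -0.35 with loess fitted on mouse miRNA probes for miR-19a, and from -0.75 without normalization to -0.14 with that loess for miR-19b. From background-subtracted signals the net sample-to-pool ratio of miR-19a was 1.68 in control and 0.60 in tumor cells, a log2 difference of -1.48. For miR-19b it was 1.58 and 0.69, a log2 difference of -1.19.

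The pool channel differed as well. The centred pool signal of miR-19a was 0.19 higher on the tumor than on the control array and that of miR-19b 0.31 higher, against an SD of 0.34 over 179 probes, although the pool is the same RNA on each array. Those 179 include probes not detected in Hy5. Net Hy5 signals before scaling differed on the log2 scale by 0.067 for miR-19a and 0.28 for miR-19b. The median over 98 probes detected in Hy5 on both arrays was -0.50, so the pool channel holds part of the net ratio differences of both. With the Hy3 channel alone the differences were -0.55 for miR-19a and -0.16 for miR-19b. The net Hy3 signal was 2.67-fold lower for miR-19a and 1.89-fold lower for miR-19b on the tumor array before any scaling. The detected probes as a whole were dimmer there as well, with a median net log2 difference of -0.67 beside -1.42 for miR-19a and -0.92 for miR-19b.

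The miR-363 probe was 0.080 ± 0.019 higher in tumor than in control cells at 4 of 4 spot positions, but -0.068 without normalization and 0.34 with loess on mouse miRNA probes. Its net ratio to the pool was 1.76, 1.88 and 1.90 in control, non-malignant ICN1 and tumor cells, a log2 difference of 0.11 between the last and the first. The miR-25 difference was -0.14 ± 0.053, above 0 with the Hy3 channel alone (0.14) and with the loess on mouse probes (0.057). For miR-92 it was -0.0083 ± 0.028, with 2 of 4 spot positions lower, and above 0 with median centring, print-tip loess and loess on mouse probes (up to 0.019). In the reported setting none of the 5 reached 2-fold, beside 15.3% of 177 detected probes. With an offset of 0, where miR-19a did, at -1.07, 21.5% of probes were 2-fold lower. Of the 5 probes 4 lay below 0, beside 65.5% of all, and their median was -0.14 against -0.11. Of all 177, 22.0% were lower than miR-19a and 26.6% lower than miR-19b. Within the intensity range of the 5, where most probes are dimmer than miR-19b, 8 of 70 detected probes were lower than miR-19a and 14 lower than miR-19b.

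The third comparison set the tumor sample against the non-malignant ICN1 sample, whose arrays were both used above. The miR-19a probe was 1.3-fold lower in the tumor sample (-0.37 ± 0.018) and below 0 in all 12 other settings, from -0.59 to -0.11. The miR-19b probe was 1.17-fold lower (-0.23 ± 0.019), but above 0 with the loess on mouse probes (0.080) and with the Hy3 channel alone (0.18). From background-subtracted signals the log2 differences of the ratio were -1.06 for miR-19a and -0.79 for miR-19b. The pool signal of the pair differed by 0.28 and 0.39 between these arrays, against an SD of 0.38 over 179 probes. Their net Hy5 signals differed on the log2 scale by 0.46 and 0.63 before scaling. The median over 94 probes detected in Hy5 on both arrays was -0.38. Before scaling, net Hy3 signals differed on the log2 scale by -0.60 for miR-19a and -0.16 for miR-19b, beside a median of -0.53 over the detected probes.

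In the same comparison miR-363 was 0.17 ± 0.039 higher in the tumor sample at 4 of 4 spot positions and above 0 in all 12 other settings (0.023 to 0.37), while the net ratio to the pool differed by 0.015. The miR-25 difference of -0.062 ± 0.054 was above 0 with print-tip loess, loess on mouse probes and the Hy3 channel alone (up to 0.24). For miR-92 it was 0.081 ± 0.033, above 0 in all 12. The probe was not detected in the non-malignant sample, and its nominal bound of 1.002-fold brighter in tumor is smaller than the spread over spots. None of the 5 reached 2-fold, beside 10.3% of 174 detected probes. Of the 5 probes 3 lay below 0, beside 69.5% of all, with a median of -0.062 against -0.084. Of all 174, 27.0% were lower than miR-19a and 36.8% lower than miR-19b. Within the intensity range of the 5, 11 of 69 detected probes were lower than miR-19a and 21 lower than miR-19b.

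**Figure D3:**
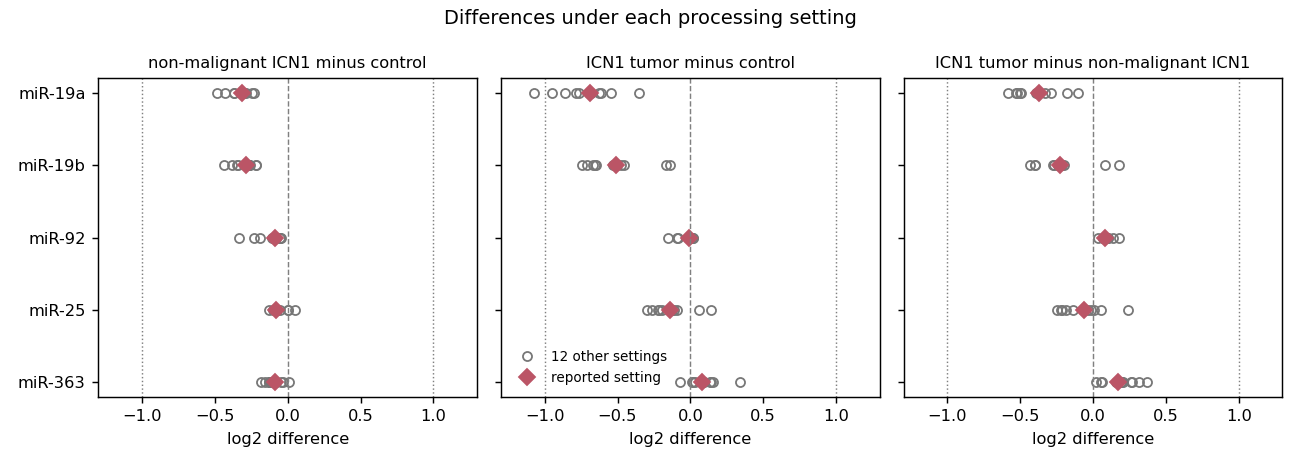
Log2 difference between samples (x axis) of each probe (y axis) in the 3 comparisons, as reported (filled diamonds) and in 12 other settings (open circles); the dotted lines mark 2-fold. The miR-19a points stay below 0 in every panel and those of miR-19b in the left and middle panels, while in the right panel miR-19b reaches 0.18.

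Because the pool holds equal amounts of the 3 samples, the mean of the 3 linear normalized ratios would be 1 with no dye or normalization effect. It was 0.948 for miR-19b and 1.05 for miR-363, within the quartiles of 0.932 to 1.15 over 179 detected probes, and 0.931 for miR-19a, just under the lower quartile. For the probes with an undetected pool it was 1.38 (miR-25) and 0.815 (miR-92), both outside those quartiles. The net ratios of miR-363, without loess, were 1.76, 1.88 and 1.90, all above 1, so they cannot be read as amounts relative to the pool.

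Probes with 1 mismatch were compared with their perfect-match probes for miR-19b and miR-92. For miR-19b the net Hy3 signal of the mismatch probe was 12.3 ± 4.75, 8.15 ± 2.27 and 16.1 ± 5.64 units in control, non-malignant ICN1 and tumor cells, beside 136, 80.7 and 72.2 units for the perfect match. The mismatch probe passed the detection rule on 0, 0 and 1 of 4 spots and so was not detected on any array, while the perfect match passed on 4 of 4 spots of each. For miR-92 the mismatch probe gave -0.63 ± 1.32, -2.01 ± 1.68 and 3.83 ± 1.51 units with no spot detected, against 25.5, 17.8 and 23.8 units for the perfect match. On the non-malignant array neither probe of the miR-92 pair was detected, so their order there has no reading. No mismatch probe was used for miR-19a, miR-25 or miR-363, so how far miR-19a and miR-19b share signal was not tested.

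**Figure D4:**
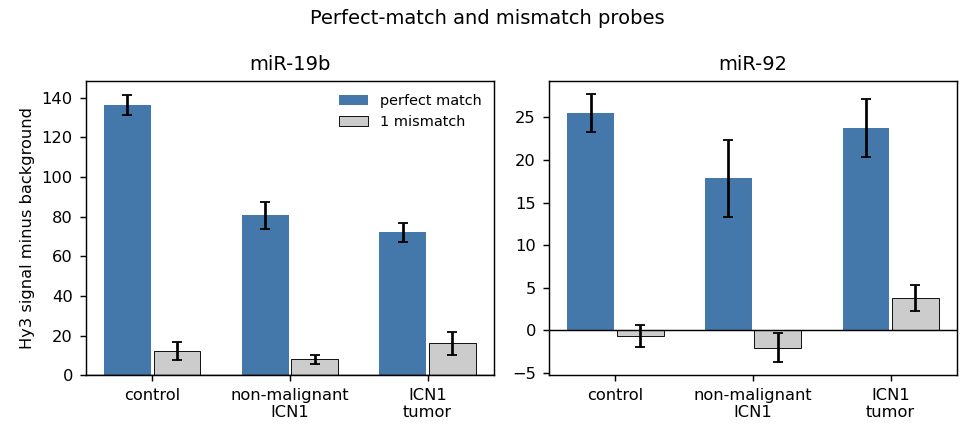
Net Hy3 signal in intensity units (y axis, mean with SD over 4 spots) of the perfect-match probe (blue) and the probe with 1 mismatch (grey) of miR-19b (left) and miR-92 (right) in the 3 samples (x axis). The perfect-match bars reach 136, 80.7 and 72.2 units for miR-19b and 25.5, 17.8 and 23.8 for miR-92. Neither miR-92 probe was detected in the non-malignant sample.

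The other probes of the 3 clusters carry the miR-17 and miR-18 seeds or are opposite strands, and 7 of 10 were detected. The 7 are not 7 separate measurements, as 2 are miR-20a probes and another is named for 2 miRNAs. The miR-18a and miR-18b probes gave 414 and 411 units in Hy3 in control, and how far related probes share signal was not tested. In non-malignant ICN1 against control cells all 7 lay below 0, beside 58.1% of all detected probes, with a median of -0.32, from -0.59 and -0.57 for the pair of miR-20a probes to -0.18 for miR-18a and -0.13 for miR-18b. Of these, miR-106b, miR-18a and miR-18b were just above 0 with loess on mouse probes (miR-18b highest, at 0.062), and miR-18a also with the Hy3 channel alone (0.031). In tumor against control cells 6 of 7 were below 0, beside 65.5% of all, with a median of -0.29, from -1.18 for miR-106b and -0.45 for a miR-20a probe to -0.13 for miR-18b and 0.30 for miR-20b. With loess on mouse probes miR-106b was -0.23, while both miR-20a probes, miR-18a, miR-18b and the probe named for both miR-17-5p and miR-106a turned above 0, as did 3 of these 5 with the Hy3 channel alone. The miR-106b and miR-25 genes lie in the same cluster, and beside the -1.18 of miR-106b the miR-25 difference was -0.14. These 2 sizes cannot be compared. The pool was not detected for miR-25, and its net Hy3 signal in control was 78.5 units beside 5587 for miR-106b, so the offset shrinks it more. The remaining probe of that cluster, miR-93, was not detected on any array. In tumor against non-malignant cells only miR-106b (-0.86) and miR-18a (-0.039, above 0 with that loess and with print-tip loess) were below 0 in the reported setting, 2 of 7 beside 69.5% of all, with a median of 0.12 and miR-20b (0.57) and a miR-20a probe (0.31) highest. There, miR-19a was at -0.37 and miR-19b at -0.23, with the exceptions for miR-19b given above, although miR-19a lies between miR-18a and miR-20a in the same cluster. The pool channel moved with that contrast: between these arrays the centred pool signal differed by 0.28 and 0.39 for miR-19a and miR-19b and by -0.56 to -0.21 for the 7 other cluster probes. In net Hy3 signal, before scaling, all 7 were below 0, from -1.52 to -0.10, with miR-18a at -1.05, beside -0.60 for miR-19a and -0.16 for miR-19b. A difference between miR-19 and the other cluster miRNAs was not tested.

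Outside the clusters, miR-32 and miR-92b share the miR-92/25 seed and were detected in control and tumor cells, and miR-367 was not detected. Like miR-92, miR-32 and miR-92b passed on 0 of 4 spots in the non-malignant sample. Their medians were -0.020, -0.12 and -0.097 in the 3 comparisons, in the order given above. In tumor against control cells miR-32 was at -0.15 ± 0.061 and miR-92b at -0.082 ± 0.036, each below 0 in all 12 other settings, and the pool was not detected for either. In control and tumor cells the net Hy3 signal was 27.6 and 24.6 units for miR-32 and 24.2 and 23.3 for miR-92b. The median of human-named probes without a mouse gene was close to these, at 20.9 and 21.8 units, so both differences are near background.

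Among 172 other detected mouse-named probes, the profiles over the 3 arrays nearest to the mean of miR-19a and miR-19b were those of let-7f, at a Euclidean distance of 0.074 in log2 units, let-7e (0.17) and miR-30d (0.19). These were the 3 probes within a distance of 0.2, and all had a detected pool on each array. The let-7f ratios were 0.20, -0.17 and -0.45 beside 0.19, -0.11 and -0.41 for the miR-19 mean. For the mean of miR-92, miR-25 and miR-363 the nearest were miR-377 (0.058), miR-495 (0.089) and miR-139 (0.096), but 25 probes lay within 0.2 and the pool was detected on 0 arrays for each of these 3, so the likeness is that of flat profiles near background. A distance over 3 arrays of 3 samples is a description only.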

How the data were processed

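For every spot and dye the deposited scanner tables hold the mean and median signal and the local background with its SD, each a linear intensity that was not yet normalized, and a quality flag, a score, per the file headers. The image software is not given in the sources used here. Spots with flag 3 (51 to 125 of 6720 per array, none in the 5 probes) were left out, and flags 2 and 4, whose meaning is not stated, were kept. Background was corrected with normexp (offset 50) on the deposited intensity values, log2(Hy3/Hy5) was normalized within arrays by global loess in limma 3.58.1 under R 4.3.3, where control and mismatch spots had weight 0, and spots were averaged. A probe entered a comparison if detected in Hy3 on at least 1 of its 2 arrays. A net signal is signal mean minus background median. Tables were made with pandas 2.3.3 and numpy 2.4.6 under Python 3.11.15, and plots with matplotlib 3.10.9. The functions were tested on simulated data; changes of dim probes were shrunk with the offset of 50 and widened with 0.

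The probes carry human names, and 276 were paired by name with RefSeq mouse genes. A deposited table of processed values, whose scale is not stated, was not used, since only 1 of its 345 row numbers occurred among the probe identifiers; no column lacked a sample. The text names all 5 probes, then the 2 lowest and 2 highest of the other cluster probes, the probes sharing the miR-92/25 seed, and the 3 nearest profiles; others named were chosen after their values were seen. Members, lists and cell markers were chosen with earlier results of these data known. With 1 sample per group no test was made. The alternatives were other normalizations, offsets, spot summaries and filters, and the Hy3 channel alone.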

Additional observations from a re-analysis of the deposited data

How the results depend on the processing

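With 1 sample a group, no replicate could be left out. No paired analysis was possible because each group had 1 sample. The offset of 0 and the restriction to members detected in both dyes were chosen after seeing the data. The median difference of the 5 probes in non-malignant ICN1 against control cells, -0.090 as reported, was -0.19 without normalization, -0.23 with an offset of 10, -0.34 with 0, -0.19 with Hy3 alone and -0.29 over the 3 members detected in both dyes. In tumor against control cells, -0.14 as reported, it was -0.20 with median centring, -0.29 without normalization, 0.019 with loess on mouse miRNA probes, -0.22 with spike-in centring, -0.22 with an offset of 10, -0.26 with 0, -0.095 without background correction, -0.016 with Hy3 alone and -0.51 over the 3 members. In tumor against non-malignant cells, -0.062 as reported, these settings other than no background correction gave, in turn, -0.25, -0.21, 0.072, -0.22, -0.14, -0.19, 0.18 and -0.23. Counts at 2-fold were 6 in place of 10 with Hy3 alone in the first comparison and 15 in place of 27 with loess on mouse miRNA probes in the second, and otherwise within 1.5 times. That loess moved the median of all detected probes by 0.16 in tumor against control cells. Of 180 single-member values in other settings, 84 moved by more than their spread over spots. The causes were not tested. Signals of 1.2 to 2.8 times background, and a pool not detected for miR-25 and miR-92, limit all of these values.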
